A study of Mus musculus with 36 samples.

Results

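The 10 receptor tyrosine kinases that receive growth signals in liver were followed through a year of carbon tetrachloride (CCl4) injury: the ERBB receptors Egfr, Erbb2 and Erbb3, the hepatocyte growth factor receptor Met, the fibroblast growth factor receptors Fgfr1, Fgfr2 and Fgfr4, the insulin receptor Insr, the insulin-like growth factor 1 receptor Igf1r, and Axl. They were taken by symbol, 10 of the 32544 gene symbols in the deposited count table, and all 10 were abundant enough to be tested. The livers came from male C57BL/6N mice that were 8 to 10 weeks old at the start, in 6 groups of 6. CCl4 dissolved in olive oil (1 g per kg) was injected into the peritoneum 2 times a week for 2, 6 or 12 months, and vehicle mice received olive oil alone for 2 or 12 months. The interval from the last dose to collection was 6 days. A month 0 group is titled control, while its treatment label reads olive oil. Month 6 had no oil group of its own and was compared, in log2 units, with oil averaged over months 2 and 12. All mice carry the same strain background with no engineered allele named, and CCl4 is a chemical model of liver scarring. RNA came from whole liver, so fewer cells of a type and less RNA per cell cannot be told apart.

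These receptors sit in the cell membrane, bind a secreted or membrane-bound ligand, pair up and phosphorylate each other, and pass the signal to the RAS-MAP kinase and PI3-kinase-AKT routes. In liver, EGFR and MET carry the mitogenic signals of regeneration, FGFR4 with its partner beta-Klotho restrains bile acid synthesis, INSR controls glucose and lipid metabolism, and adult hepatocytes are known for little IGF1R. AXL, the receptor of the ligand GAS6, is known from macrophages, endothelial cells and stellate cells rather than hepatocytes.

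Promoter windows are shown for Egfr and Axl, whose change was largest in each direction, and for Met, lower at 2 time points. They were read from RefSeq (GRCm38.p6, the mm10 assembly), 300 bases each, written 5′ to 3′ on the gene's strand. Each runs from 250 before to 50 after a listed transcript start. For Met and Axl that start lies inside the gene's span given below, not at its edge. Capitals mark a GC box (GGGCGG on either strand) or an AP-1 site (TGANTCA, a pattern that reads the same on both strands).
Egfr, chr11:16751953-16752252, plus strand: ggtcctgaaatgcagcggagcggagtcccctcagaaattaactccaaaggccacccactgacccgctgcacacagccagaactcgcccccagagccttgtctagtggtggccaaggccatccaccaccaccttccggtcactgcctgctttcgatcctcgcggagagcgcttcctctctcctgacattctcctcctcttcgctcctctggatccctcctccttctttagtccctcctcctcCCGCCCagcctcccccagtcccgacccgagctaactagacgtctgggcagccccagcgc
Met, chr6:17463707-17464006, plus strand: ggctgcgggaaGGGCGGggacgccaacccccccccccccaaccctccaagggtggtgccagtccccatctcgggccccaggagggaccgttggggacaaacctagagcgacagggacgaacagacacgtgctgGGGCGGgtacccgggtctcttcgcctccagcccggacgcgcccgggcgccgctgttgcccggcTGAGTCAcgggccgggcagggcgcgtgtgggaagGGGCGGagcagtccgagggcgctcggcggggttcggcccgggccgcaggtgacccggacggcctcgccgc
Axl, chr7:25788684-25788983, minus strand: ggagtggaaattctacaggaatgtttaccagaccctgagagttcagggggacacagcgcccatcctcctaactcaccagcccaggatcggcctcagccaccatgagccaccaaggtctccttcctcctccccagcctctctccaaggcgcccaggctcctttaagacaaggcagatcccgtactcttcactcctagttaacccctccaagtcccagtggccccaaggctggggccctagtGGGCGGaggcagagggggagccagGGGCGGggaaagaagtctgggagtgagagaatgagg
The Egfr window held 1 GC box and 15 CpG dinucleotides, the Met window 3 GC boxes, 1 AP-1 site and 34 CpG, and the Axl window 2 GC boxes and 6 CpG. Over 32851 promoter windows of the same length, 35.7% held a GC box, 7.81% an AP-1 site, and the median CpG count was 7. No TATAAA (13.6% of windows) and no CAAAGTNCA, a letter pattern of HNF4A sites (1.41%), stood in these windows on either strand. RefSeq promoter entries matched 7 of the 10 receptors. Among the others matched, Igf1r had 2 GC boxes and 48 CpG, Fgfr4 had 4 and 20, and Erbb2 and Fgfr2 had no GC box and 21 and 4 CpG. A match is a string of letters and says nothing of binding.

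The libraries held between 19403247 and 28917545 counts each, and levels below are counts scaled to library size with TMM factors (CPM), unless given per kb. TMM factors ran from 0.757 to 1.33 and differed by treatment. At month 12 they ran from 1.24 to 1.33 with CCl4 and from 0.781 to 1.01 with oil. At month 2 they ran from 1.03 to 1.14 with CCl4 and from 0.900 to 0.991 with oil. A higher factor gives a lower CPM. Called means an adjusted p under 0.05 in edgeR's quasi-likelihood test, with Benjamini-Hochberg adjustment over the 15338 tested genes. The labels number 6 replicates per group without saying that each is a separate mouse. Each library is written of here as a liver on the reading that each replicate is 1 mouse. The p-values measure the spread between these samples, which may be in part technical if that reading is wrong. Hepatocyte markers were high in every library, with a summed level of the 10-gene hepatocyte list (Alb, Ttr, Cps1, Cyp2e1 and others) from 60300 to 111000 CPM, so the label liver fits its defining markers. Pancreas transcripts were mixed into many libraries, with a 6-gene list sum from 1.00 to 29800 CPM and at least 3120 in some library of each group.

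To order the receptors, levels were divided by the length of merged exons, in CPM per kb. Egfr had the highest mean in all 6 groups, with 119.6 ± 23.3 CPM per kb at month 0 and 96.8 ± 24.9 in month 12 oil livers (SD, n = 6). In month 12 oil livers it was followed by Erbb3 at 21.6 ± 2.60, Met at 14.1 ± 1.49, Insr at 8.04 ± 0.836, Axl at 7.12 ± 1.12, Fgfr4 at 5.21 ± 0.554, Fgfr2 at 3.64 ± 0.205, Fgfr1 at 1.04 ± 0.337, Igf1r at 0.309 ± 0.123 and Erbb2 at 0.250 ± 0.0802. Insr and Axl overlapped between livers (7.16 to 9.45 against 6.11 to 9.18), as did Igf1r and Erbb2 (0.214 to 0.552 against 0.157 to 0.350), so those neighbours have no fixed order, while the ranges of Egfr and Erbb3 and of Erbb3 and Met were apart. After 12 months of CCl4 Egfr was first by its mean, but its range (10.9 to 50.3) overlapped those of Axl, Erbb3 and Met. Axl, at 12.6 ± 1.55 CPM per kb, moved from the fifth to the second place, with a range (10.6 to 14.8) that overlapped Erbb3 (8.22 to 17.4) and Met (6.75 to 13.1).

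**Figure D1:**
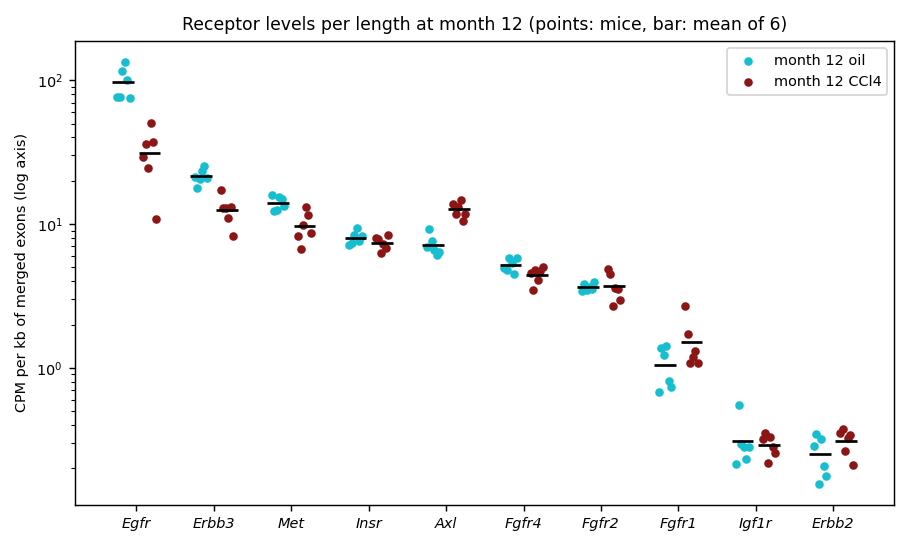
Receptor levels per length in month 12 livers, in CPM per kb of merged exons on a log axis, with 1 point per liver and a bar at the mean of 6 livers per group. The Egfr points of CCl4 livers (10.9 to 50.3) lie wholly below those of oil livers (75.4 to 134.3), and the Axl points lie above.

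Egfr had a mean share of over 50% of the summed receptor transcript in each group except month 12 CCl4, where no liver reached that share. It made up 60.5% ± 5.14 of the 10-receptor sum per kb in month 12 oil livers and 35.9% ± 10.1 in month 12 CCl4 livers (SD, n = 6), with ranges of 55.6% to 67.1% and 19.1% to 47.5% that did not overlap. The sum itself was 158.0 ± 27.1 CPM per kb with oil and 84.0 ± 16.2 with CCl4. Without Egfr the other 9 receptors summed to 61.3 ± 2.88 and 52.6 ± 4.80. The shares do not depend on library scaling, but these sums rest on TMM, and sums with library totals alone were not computed. With library totals alone the month 12 log2 differences of Met, Fgfr4 and Insr were 0.02, 0.31 and 0.44. With the longest coding transcript in place of merged exons, a length chosen after seeing the data, the Egfr share was 58.2% ± 5.26 and 32.99% ± 9.64, and Axl moved from the sixth to the second place. With that length, Fgfr2 in month 12 oil livers (8.73 ± 0.492 CPM per kb) stood above Axl (8.41 ± 1.32) and Fgfr4 (5.56 ± 0.59). The order of Axl, Fgfr4 and Fgfr2 thus depended on the length used.

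At month 12, 3 of the 10 receptors fell and 2 rose, against 49.1% of all tested genes called (23.2% lower, 25.9% higher), so the share of receptors called was near the background. Egfr, Erbb3 and Met fell, and Axl and Fgfr1 rose (Met was at 0.02 with library totals alone in place of TMM). With library totals alone the count was 1 lower (Egfr) and 6 higher (Axl, Fgfr1, Erbb2, Fgfr2, Fgfr4 and Insr). With TMM the median log2 difference of the 10 receptors was -0.10, beside 0.01 over all genes tested. At month 2, 2 of 10 were called, both higher (Erbb2 and Axl), beside 10.4% of all genes (7% higher, 3.38% lower). At month 6, 1 of 10 was called, Met, lower, beside 11.4% of all genes (7.71% higher, 3.68% lower). The p adjustment runs within each comparison, so the same unadjusted p can pass at month 12 and miss at months 2 and 6. Counts of calls are thus not directly comparable between months. The month 6 comparison shares oil libraries with those of months 2 and 12, since its reference is made of both oil groups.

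**Figure D2:**
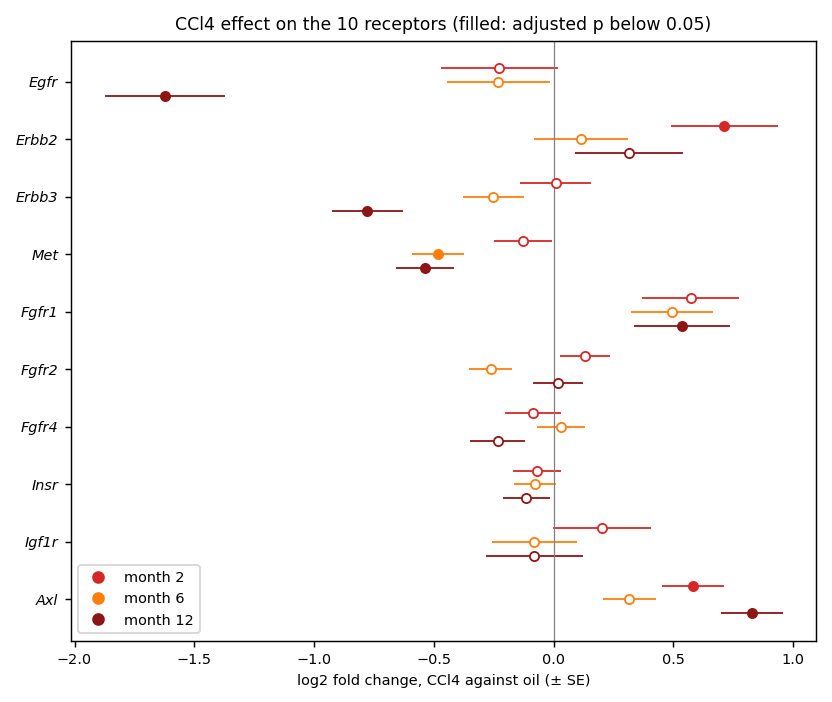
CCl4 effect on each receptor at months 2, 6 and 12 as a log2 fold change against oil, with SE bars; filled points passed an adjusted p of 0.05. Egfr at month 12 lies farthest from 0, at -1.62, and Axl is the member with filled points on the right at months 2 and 12.

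Egfr (mm10 chr11:16752203-16913907, plus strand), the receptor of EGF, TGF-alpha and amphiregulin, was not called at months 2 and 6 and fell at month 12. At month 2 it ran from 613 to 1571 CPM with oil (median 997) and from 758 to 950 with CCl4 (median 861). At month 6 with CCl4 it ran from 573 to 1161 (median 911). At month 12 it ran from 853 to 1521 with oil (median 1006) and from 124 to 570 with CCl4 (median 369). Every month 12 CCl4 liver was under every month 12 oil liver, and the highest of them, 570, was also under the lowest of each other group. Of all tested genes, 22.3% had month 12 CCl4 and oil groups that did not overlap. The fall at month 12 was 3.08-fold, log2 -1.62 ± 0.251 (SE), adjusted p = 2.55e-06 by edgeR's quasi-likelihood test. At months 2 and 6 the log2 differences were -0.23 ± 0.245 (adjusted p = 0.627) and -0.23 ± 0.214 (adjusted p = 0.552), with 95% intervals of -0.724 to 0.272 and -0.666 to 0.205. The oil livers of month 2 spread widely, with replicates 1 to 3 at 1204 to 1571 and replicates 4 to 6 at 613 to 790 CPM. Whether the replicate numbers follow a batch was not tested.

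Erbb3 (chr10:128567523-128589635, minus strand), a neuregulin receptor with little kinase activity of its own that signals through a partner, also fell at month 12. Its month 12 levels ran from 107 to 153 CPM with oil (median 127) and from 49.4 to 105 with CCl4 (median 77.8). The month 12 groups did not overlap, as for 22.3% of tested genes, with the highest CCl4 liver (104.5 CPM) just under the lowest oil liver (106.5 CPM). The fall was 1.71-fold, log2 -0.78 ± 0.148, adjusted p = 5.13e-05. At month 2 the groups overlapped, with medians of 124 and 132 CPM and a log2 difference of 0.01 ± 0.147 (95% interval -0.290 to 0.306). At month 6 the log2 difference was -0.25 ± 0.128 (adjusted p = 0.224).

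Erbb2 (chr11:98412484-98437716, plus strand), which has no ligand of its own and serves as the partner of the other ERBB receptors, was scarce in all groups, with 126 to 333 counts summed over the 6 libraries of a group. At month 2 it ran from 0.846 to 1.59 CPM with oil (median 1.30) and from 1.33 to 3.67 with CCl4 (median 1.93). At month 2, 5 of 6 CCl4 livers were above all oil livers, and replicate 6 stood apart at 3.67 with the next at 1.98. The month 2 log2 difference was 0.71 ± 0.225 (adjusted p = 0.0364), and it was 0.47 ± 0.209 (adjusted p = 0.182) without that library, which also held the highest summed level of the intestine list, 385 CPM against 41.1 to 95.2 in the other month 2 libraries. The part of intestinal transcripts in the Erbb2 level was not tested. The call was also lost without month 2 oil replicates 1, 3 or 5 or month 2 CCl4 replicates 3 or 5, with adjusted p from 0.0523 to 0.0974. At months 6 and 12 Erbb2 was not called, at 0.12 ± 0.195 and 0.32 ± 0.225 on the log2 scale. In the annotation Erbb2 shares 9 exon bases with Mien1 on the other strand, and the use of strand in counting is unknown here.

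Met (chr6:17463349-17573980, plus strand), the receptor of hepatocyte growth factor, was the receptor called lower at month 6. Its levels ran from 112 to 126 CPM in month 2 oil livers (median 117) and from 98.2 to 122 in month 2 CCl4 livers (median 107). In month 6 CCl4 livers they ran from 62.3 to 94.3 (median 84.5). In month 12 livers they ran from 95.4 to 122 with oil (median 109) and from 51.8 to 101 with CCl4 (median 71.2). All 6 month 6 CCl4 livers were below all 12 oil livers of months 2 and 12, a separation that 1.81% of tested genes showed in that comparison. At month 12 only CCl4 replicate 4, at 101 CPM, reached into the oil range. The log2 difference was -0.13 ± 0.122 (adjusted p = 0.572) at month 2 and -0.48 ± 0.108 (adjusted p = 0.00265) at month 6, where it was -0.16 with library totals alone and the call was lost (adjusted p = 0.152). At month 12 it was -0.54 ± 0.122 (adjusted p = 0.000481), but 0.02 with library totals alone. That scaling moved the median log2 difference of all genes from 0.01 to 0.556 at month 12, and to 0.199 and 0.313 at months 2 and 6. Setting Met against that shift only repeats what TMM scaling does, so it is no separate test of the Met fall. With library totals alone at month 12, Erbb3 was at -0.22 (adjusted p = 0.174), Egfr at -1.06 (adjusted p = 0.000243) and Axl at 1.35. Met was called at month 6 and Egfr was not, and the difference between these genes was not tested.

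Of the fibroblast growth factor receptors, Fgfr1 (chr8:25518759-25575718, plus strand), which is broadly expressed in mesenchymal cells, had differences from oil of 0.49 to 0.57 on the log2 scale at the 3 months. It ran from 5.34 to 12.9 CPM with oil and from 12.9 to 15.8 with CCl4 at month 2, and from 6.70 to 13.95 and 10.7 to 26.4 at month 12. Both pairs of groups overlapped, narrowly at month 2 and broadly at month 12, with CCl4 replicate 1 at 26.4 CPM and the next at 16.9. The log2 differences were 0.57 ± 0.202 (adjusted p = 0.0648), 0.49 ± 0.172 (adjusted p = 0.0571) and 0.54 ± 0.202 (adjusted p = 0.0272) at months 2, 6 and 12. Only the month 12 value passed the threshold in this fit. Its unadjusted p was nonetheless the largest of the 3 by edgeR's quasi-likelihood test. It was 0.0121 at month 12, against 0.00792 and 0.00694 at months 2 and 6. The month 2 value was called in 4 of 21 alternatives, among them limma-voom (adjusted p = 0.0457) and library totals alone, and without oil replicate 6. The month 6 value was called in 7 of 29, among them DESeq2 (adjusted p = 0.047), limma-voom (adjusted p = 0.0296) and library totals alone, and without month 12 oil replicates 2 or 4 or month 2 oil replicate 6. For the month 12 value, without month 12 CCl4 replicate 1 it was 0.32 ± 0.183 (adjusted p = 0.157). Leaving out month 12 oil replicate 1, 5 or 6 also ended the call, with adjusted p of 0.0903, 0.075 and 0.0756, as did a fit of the compared groups only (0.0996). Fgfr1 shares 164 exon bases with the antisense gene Gm16159.

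Fgfr2 (chr7:130162451-130266808, minus strand), a receptor of epithelial cells for FGF7 and FGF10, was not called against oil at any month in this fit. At month 6 it was called lower in 11 of 29 alternatives, among them RLE size factors (adjusted p = 0.0457), DESeq2 (adjusted p = 0.0323) and the compared groups alone (adjusted p = 0.0184), and without month 12 oil replicates 1, 2, 3, 4 or 5, month 2 oil replicate 3 or month 6 CCl4 replicates 4 or 6. With library totals alone it was called higher at months 2 (0.33) and 12 (0.56). Its month 6 CCl4 livers, at 25.2 to 35.3 CPM, were all below the month 2 CCl4 livers, at 35.8 to 41.5. Those groups were apart for 1% of tested genes. Of the month 6 CCl4 livers, 5 of 6 were below the month 12 oil livers, at 35.2 to 40.6. At month 12 with CCl4 it ran from 27.7 to 50.4, wider than the oil group. Against oil the log2 differences were 0.13 ± 0.104, -0.26 ± 0.0913 (adjusted p = 0.0566) and 0.02 ± 0.104, with a 95% interval of -0.192 to 0.232 at month 12. Fgfr4 (chr13:55152818-55168759, plus strand), the hepatocyte receptor of intestinal FGF15, ran from 15.99 to 20.67 CPM with oil and from 12.3 to 17.7 with CCl4 at month 12. Those groups overlapped, and the log2 difference of -0.23 ± 0.116 was not called (adjusted p = 0.0929, 95% interval -0.469 to 0.00131) and was 0.31 with library totals alone. Its differences at months 2 and 6 were -0.09 ± 0.116 and 0.03 ± 0.0997.

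Insr (chr8:3150922-3279649, minus strand) showed no called difference in any comparison. It ran from 98.5 to 130 CPM in month 12 oil livers and from 86.1 to 115 with CCl4, and the groups overlapped. Its log2 differences at months 2, 6 and 12 were -0.07 ± 0.1, -0.08 ± 0.0872 and -0.11 ± 0.1 (with library totals alone 0.24 at month 6 and 0.44 at month 12), and the 95% interval at month 12 was -0.317 to 0.0912. Igf1r (chr7:67952257-68233668, plus strand) was scarce, from 3.60 to 9.26 CPM in month 12 oil livers and from 3.67 to 5.94 with CCl4. Its log2 difference at month 12 was -0.08 ± 0.203 with a 95% interval of -0.493 to 0.333, so differences within those bounds were not resolved. Month 12 oil replicate 2 (9.26 CPM) and month 2 oil replicate 6 (8.01 CPM) stood above the rest of their groups.

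Axl (chr7:25756500-25788924, minus strand), the GAS6 receptor that takes part in clearing dead cells, was called higher at months 2 and 12. At month 2 it ran from 25.5 to 36.04 CPM with oil (median 29) and from 41.2 to 52.7 with CCl4 (median 42.7). At month 6 with CCl4 it ran from 31.7 to 51.7 (median 39.4). At month 12 it ran from 30.8 to 46.2 with oil (median 33.9) and from 53.1 to 74.3 with CCl4 (median 62.6). The groups were apart at months 2 and 12, which 7.05% and 22.3% of tested genes also showed, and the lowest month 12 CCl4 liver was above every liver of any other group. The log2 rises were 0.58 ± 0.129 (1.5-fold, adjusted p = 0.00309) and 0.83 ± 0.129 (1.77-fold, adjusted p = 2.91e-06). At month 6 the groups overlapped and the difference of 0.32 ± 0.11 missed the threshold (adjusted p = 0.058). It was called without month 12 oil replicate 2, month 2 oil replicates 4 or 6 or month 6 CCl4 replicates 5 or 6, with values from 0.24 to 0.36 when any 1 library was left out, and with library totals alone it was 0.62 (adjusted p = 0.000269). Against month 2 oil alone it was 0.44 and called (adjusted p = 0.0268), and against month 12 oil alone it was not called. A filter of 1 CPM in 6 libraries also gave a call (adjusted p = 0.0494). So did leaving out 4 libraries that held transcripts of other tissues or blood cells (adjusted p = 0.0375).

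**Figure D3:**
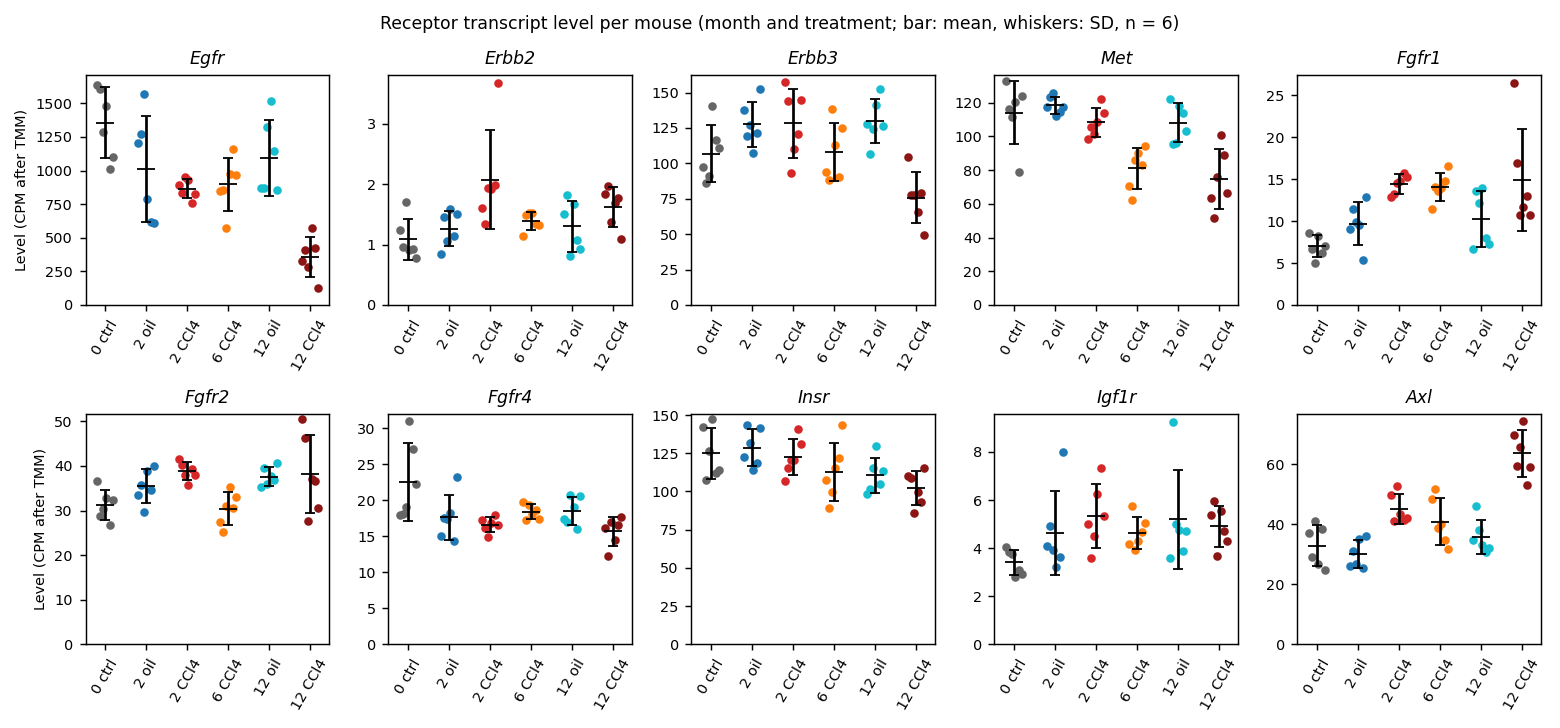
Level of each receptor in CPM after TMM scaling in 36 livers, 1 point per liver, with the mean and SD of 6 livers per group along the x axis (month and treatment). The month 12 CCl4 points of Egfr lie at 124 to 570 CPM and those of Axl at 53.1 to 74.3 CPM, outside the ranges of the other groups.

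The CCl4 effect itself changed between months 2 and 12 for Egfr and Erbb3, by log2 -1.40 ± 0.348 (adjusted p = 0.00375) and -0.79 ± 0.208 (adjusted p = 0.00609) in the interaction of treatment and month. That was 2 of 10 receptors, beside 21.3% of all genes (10.1% lower, 11.2% higher). For Met the interaction was -0.41 ± 0.173 (adjusted p = 0.0895), and for Axl 0.24 ± 0.182 (adjusted p = 0.37), neither called. The Met interaction was called without month 12 CCl4 replicate 4 (-0.49, adjusted p = 0.0291). With library totals alone the Axl interaction was called (0.57, adjusted p = 0.0343) and that of Erbb3 was not (-0.42, adjusted p = 0.106). Among CCl4 livers, 0 of 10 receptors were called between months 2 and 6 by edgeR, DESeq2 or limma-voom, beside 0.502% of all genes (0.274% higher, 0.228% lower). Of these, 3 had an unadjusted p under 0.05 in edgeR: Met (-0.42 ± 0.122), Fgfr2 (-0.35 ± 0.104) and Erbb2 (-0.57 ± 0.222). Between months 6 and 12 of CCl4, 4 of 10 were called beside 39.2% of all genes (18.6% lower, 20.6% higher). Egfr fell by 1.34 ± 0.249 on the log2 scale (adjusted p = 6.57e-05) and Erbb3 by 0.51 ± 0.147 (adjusted p = 0.00563, but 0.064 with library totals alone), while Axl rose by 0.64 ± 0.128 (adjusted p = 0.000172) and Fgfr2 by 0.33 ± 0.104 (adjusted p = 0.0123). The Fgfr2 call was lost without month 12 CCl4 replicate 1 (adjusted p = 0.057) and in a fit of the compared groups only (adjusted p = 0.1).

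From month 2 to month 12 of oil, 0 of 10 were called by any of the 3 tools, beside 0.0717% of all genes (0.0391% higher, 0.0326% lower, and groups apart for 1.37%), and Insr alone had an unadjusted p under 0.05 (-0.22 ± 0.1). From month 0 to month 2 of oil, 1 of 10 was called, beside 31.3% of all genes (16.4% lower, 14.8% higher). This was Fgfr4, from 17.9 to 31.1 CPM at month 0 to 14.3 to 23.2 at month 2, overlapping groups, log2 -0.36 ± 0.116 (adjusted p = 0.0177). Without month 0 replicate 4 or month 2 oil replicate 5 that call was lost (adjusted p = 0.0722 and 0.054), as it was with library totals alone (-0.12 ± 0.127) and in a fit of the compared groups only.

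The list counts here and below stand beside 49.1% of all tested genes called at month 12 (25.9% higher, 23.2% lower). At months 2 and 6 those shares were 10.4% and 11.4%. Groups were apart at month 12 for 22.3% of tested genes. Of 11 listed ERBB ligands, 8 were tested, and at month 12, 6 rose and 1 fell, a median log2 difference of 1.20 beside 0.01 for all genes. Nrg1, a ligand of ERBB3, ran from 0.450 to 1.27 CPM with oil and from 4.77 to 10.97 with CCl4 at month 12, groups that did not overlap, a log2 rise of 3.38 ± 0.33 (adjusted p = 5.3e-10). It had risen by 1.79 ± 0.263 at month 6 and by 1.01 ± 0.329 at month 2 (adjusted p = 0.0438). Btc, betacellulin, ran from 2.12 to 3.92 CPM with oil and from 15.4 to 33.97 with CCl4, a rise of 2.86 ± 0.219 (adjusted p = 2.79e-12) after 0.24 ± 0.214 (adjusted p = 0.545) at month 2. Hbegf, another EGFR ligand, rose by 1.39 ± 0.258 and Nrg2 by 2.33 ± 0.467 at month 12. Named after their values were seen, Nrg4, a neuregulin known as a brown fat hormone, rose by 1.02 ± 0.283 and Tgfa by 0.50 ± 0.173, and Egf fell by 1.25 ± 0.381. In the month 12 CCl4 livers Egfr was thus lower while its ligands Btc, Hbegf and Tgfa were higher and Egf was lower. Areg, which was too scarce to be tested, had 1 count in the 6 month 12 oil libraries together and from 0.0359 to 5.64 CPM with CCl4. The Nrg1 call at month 2 was lost when any 1 of 10 libraries was left out, month 2 CCl4 replicates 1, 2, 4, 5 and 6 and month 2 oil replicates 1, 2, 3, 4 and 6, the Tgfa call without month 12 CCl4 replicate 2, and the Egf call without month 12 oil replicate 4.

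Of 4 listed ligands of MET, AXL and their relatives, 2 fell and 2 rose at month 12. Hgf, made by stellate and endothelial cells, ran from 32.3 to 46.4 CPM with oil and from 18.7 to 38.1 with CCl4, log2 -0.31 ± 0.119 (adjusted p = 0.0295; 0.23 with library totals alone), lost without month 12 CCl4 replicates 1, 2 or 6 or month 12 oil replicate 1. Mst1, the hepatocyte-made relative of HGF, fell by 0.64 ± 0.0952 on the log2 scale (adjusted p = 1.23e-06). Gas6, the ligand of AXL, ran from 32.2 to 88.1 CPM with oil and from 54.6 to 93.6 with CCl4, overlapping, and rose by 0.67 ± 0.186 (adjusted p = 0.00328). Pros1, protein S, another ligand of this receptor family, rose by 0.20 ± 0.0755 (adjusted p = 0.0294), a call lost without month 12 oil replicates 1, 2, 3, 5 or 6. At month 6 Pros1 was lower, by 0.24 ± 0.066 (adjusted p = 0.0134), a call lost against month 2 oil alone, and it was at 0.078 with library totals alone. At month 12, with library totals alone, Mst1 was at -0.08 (adjusted p = 0.408). At month 0 Gas6 stood at 134 to 249 CPM, above all later groups.

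Of 5 tested FGF ligands and the co-receptor Klb, 1 rose and 1 fell at month 12. Fgf21, a stress-induced hormone that needs KLB, ran from 0.237 to 0.993 CPM with oil and from 4.67 to 12.8 with CCl4, not overlapping, a rise of 3.88 ± 0.464 (adjusted p = 2.79e-08). At month 2 it had fallen by 1.84 ± 0.492 (adjusted p = 0.0132), a call lost without 4 libraries that held transcripts of other tissues or blood cells (adjusted p = 0.0747). Fgf1, a ligand of all FGF receptors, fell at each month (at month 2 not without those 4 libraries, adjusted p = 0.0603, or with library totals alone, adjusted p = 0.121), by 0.54 ± 0.137, 0.77 ± 0.122 and 1.06 ± 0.138 on the log2 scale, from 59.5 to 85.7 CPM with oil to 26.4 to 45.0 with CCl4 at month 12. Fgf2 and Klb differed by -0.15 ± 0.24 and 0.08 ± 0.209 at month 12 and were not called. Of the insulin and IGF ligands, Igf1, the liver's main endocrine growth factor, fell by 1.16 ± 0.123 (adjusted p = 2.77e-09), from 474 to 585 CPM with oil to 161 to 343 with CCl4. Igf2, a fetal growth factor, rose from 0.632 to 2.01 CPM to 16.7 to 357.3, by 6.50 ± 0.625 on the log2 scale (adjusted p = 3.99e-10). All 6 CCl4 livers were above all oil livers for Igf2 and below them for Igf1, while Insr and Igf1r were not called. Ins2 was called lower, by 4.82 ± 1.96 (adjusted p = 0.0407), and Ins1 was not (-4.39 ± 2.05), beside the pancreas transcripts described above, whose part was not tested. The Ins2 call was lost in 12 of 20 alternatives, among them DESeq2, limma-voom and the fits without month 12 CCl4 replicates 1, 2, 4, 5 or 6 or oil replicates 4 or 5.

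**Figure D4:**
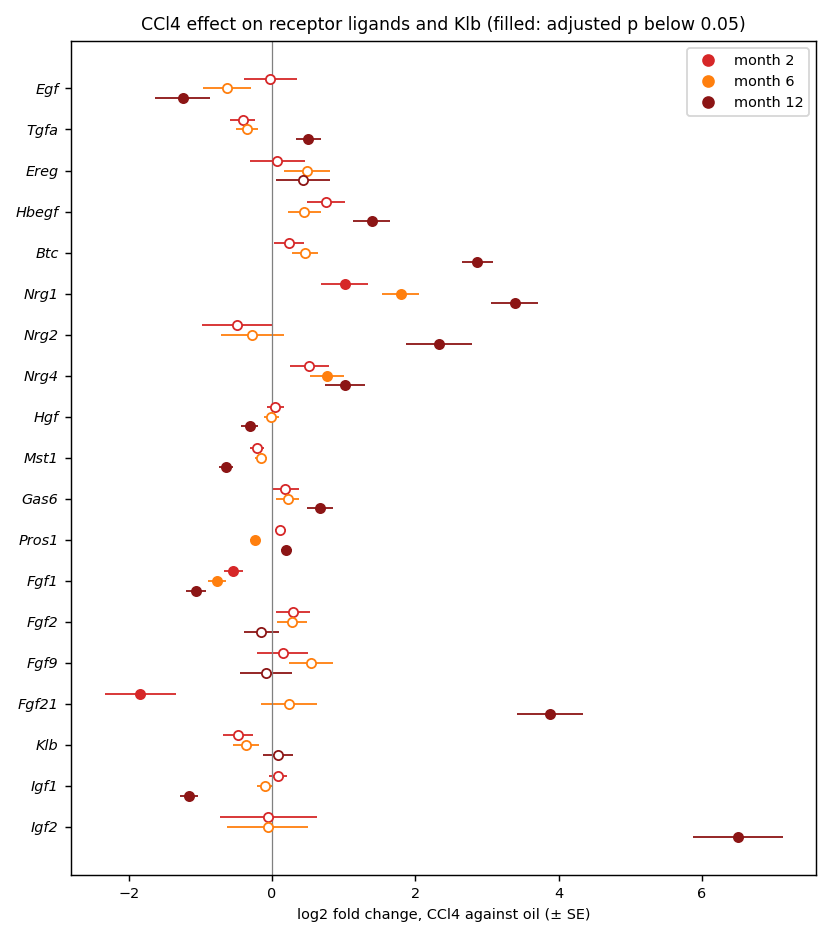
CCl4 effect on tested ligands of the receptors and on Klb at months 2, 6 and 12 (log2 fold change against oil, SE bars); filled points passed an adjusted p of 0.05, and Ins1 and Ins2 are left out. At month 12 Igf2, Fgf21, Nrg1 and Btc lie farthest right, and Egf, Igf1 and Fgf1 lie left of 0.

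Among 26 inhibitors of these receptors, 9 rose and 7 fell at month 12, beside 49.1% of all genes called. Their median was 0.02, beside 0.01 over all genes. Those that bind the insulin receptor or its signal moved in both directions. Grb14, which blocks the insulin receptor kinase, fell by 0.55 ± 0.0988 (adjusted p = 2.7e-05), from 37.7 to 50.6 CPM with oil to 22.98 to 35.06 with CCl4. Trib3, a stress gene that binds AKT, rose by 2.27 ± 0.425 (adjusted p = 4.23e-05). Cblc, a ubiquitin ligase for EGFR, rose by 0.63 ± 0.12, the feedback inhibitor Spry1 by 0.84 ± 0.162 and Sh3kbp1, a CBL partner in receptor uptake, by 0.95 ± 0.183 (and by 0.68 ± 0.183 at month 2). Errfi1 and Lrig1, both inhibitors of EGFR and both named after their values were seen, fell by 0.73 ± 0.171 and 0.65 ± 0.131. Lrig1 was also lower at month 6, by 0.39 ± 0.114 (adjusted p = 0.0212, lost without month 6 CCl4 replicate 2), where Egfr was not called. With library totals alone the calls of Grb14 (-0.01), Errfi1 (-0.19) and Lrig1 (-0.10) were lost. Errfi1 was abundant, at 711 to 1184 CPM with oil and 339 to 727 with CCl4.

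Of 32 adaptors and first kinases, 6 rose and 11 fell at month 12, a median of -0.09, beside 49.1% of all genes called. Nck2, an adaptor to the actin skeleton, rose at each month, by 0.67 ± 0.155, 0.69 ± 0.13 and 1.99 ± 0.156. Mapk3, which encodes ERK1, rose by 0.96 ± 0.114 (adjusted p = 2.32e-08), whereas the kinases Braf and Akt2 fell by 0.57 ± 0.0749 and 0.57 ± 0.0834, calls lost with library totals alone (-0.02 for each). Gab2, an adaptor, rose by 0.66 ± 0.153 at month 2 and 0.80 ± 0.152 at month 12, and Map2k1, which encodes MEK1, fell by 0.18 ± 0.0562 and 0.17 ± 0.0562 (with library totals alone 0.02 and 0.38). The Map2k1 call was lost at month 2 without CCl4 replicates 2, 4, 5 or 6 or oil replicates 1, 3, 4 or 5, and at month 12 without CCl4 replicates 1, 3 or 5. Of 15 enzymes that process receptors and ligands, 6 rose and 2 fell. Rhbdf1 and Rhbdf2, partners of the ligand-shedding protease ADAM17, rose by 1.55 ± 0.152 and 1.09 ± 0.151, St14, a protease that activates HGF, by 2.97 ± 0.552, and Timp3, an inhibitor of ADAM17, by 0.90 ± 0.187. Adam10 and Adam17 were called at month 2 (0.29 ± 0.0882 and 0.31 ± 0.0897) and not at month 12 (0.05 ± 0.0881 and 0.003 ± 0.0896). Their month 2 calls were lost without CCl4 replicates 3, 4 or 6 or oil replicates 1, 3, 4 or 5 for Adam10, and without CCl4 replicates 1 or 3 or oil replicate 1 for Adam17. Of 14 tested MAP kinase and growth response genes, 8 rose and 1 fell, a median of 0.54. Maff, Ier3 and Dusp4 rose by 2.60 ± 0.319, 2.58 ± 0.392 and 1.69 ± 0.314, and the cyclin gene Ccnd1, at 15.03 to 38.23 CPM with oil and 46.1 to 64.7 with CCl4, rose by 1.04 ± 0.257 (adjusted p = 0.00111). Such response genes are driven by many stimuli.

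Of 36 other receptor tyrosine kinases tested, 14 rose and 7 fell at month 12, a median of 0.36, beside 49.1% of all genes called. At month 2, 9 rose and 1 fell, a median of 0.31, beside 10.4% of all genes called. At month 12 the collagen receptor Ddr1 rose by 2.58 ± 0.35, the lymphatic receptor Flt4 by 1.49 ± 0.137 and Styk1 by 1.68 ± 0.261, and Ryk, a WNT co-receptor, fell by 0.62 ± 0.0682, a call lost with library totals alone (-0.08). At month 2 the receptors of fibroblast, macrophage and vessel cells Pdgfrb (0.92 ± 0.159), Pdgfra (0.73 ± 0.193), Csf1r (0.54 ± 0.17), Tie1 (0.51 ± 0.12), Ephb4 (0.52 ± 0.0948) and Kdr (0.30 ± 0.079) rose, as did Ptk7 (1.15 ± 0.258), Ephb3 (1.13 ± 0.346) and Ddr2 (0.57 ± 0.172). Aatk fell by 1.51 ± 0.203. These month 2 calls were lost without CCl4 replicates 1 or 3 or oil replicates 1, 3, 4 or 5 for Csf1r, without CCl4 replicates 3, 4, 5 or 6 or oil replicates 1, 3, 4 or 5 for Ddr2, and without CCl4 replicates 5 or 6 or oil replicates 4, 5 or 6 for Ephb3, and that of Kdr without the 4 libraries with other transcripts (adjusted p = 0.1). The nearest relatives outside the 10, named after their values were seen, were Fgfr3, Erbb4, Tyro3 and Mertk. At month 12 Fgfr3 (0.13 ± 0.145), Erbb4 (0.43 ± 0.435) and Tyro3 (0.39 ± 0.445) were not called, and Mertk, the relative of Axl in resident macrophages, rose by 0.35 ± 0.119 (adjusted p = 0.0149), a call lost without month 12 CCl4 replicate 4 or month 12 oil replicate 5.

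Cell markers moved beside these receptors. All 10 genes of a monocyte-derived macrophage list rose at month 12 and 8 at month 2, and their summed level ran from 124 to 227 CPM with oil and 596 to 1371 with CCl4 at month 12, and from 116 to 231 and 261 to 373 at month 2, in the groups where Axl rose. At month 6, where Axl was not called, 9 of the 10 rose and the sum ran from 241 to 713 CPM. Spp1, which stands in that list and in the cholangiocyte list, made up much of the month 12 sum, at 198 to 1067 CPM, and Cx3cr1 and Cd63 rose by 2.30 ± 0.236 and 3.16 ± 0.23. Of the hepatocyte list, 6 of 10 fell at month 12, in the group where Egfr, Erbb3 and Met fell, among them Cyp2e1, which activates CCl4, by 3.08 ± 0.286, Serpina1c by 1.55 ± 0.111 and Cps1 by 0.96 ± 0.168. The summed hepatocyte level overlapped, at 60300 to 107000 CPM with oil and 63300 to 103000 with CCl4. The liver with the lowest Egfr, month 12 CCl4 replicate 6 at 124 CPM, had the highest sums of its group for the hepatocyte list, the macrophage list (1371 CPM, the others 596 to 855) and the cholangiocyte list (1093 CPM, the others 215 to 561). Spp1, the gene in both of the latter lists, stood at 1067 CPM in that liver and made up most of both sums. The Kupffer cell sum of that liver, 192 CPM, was the lowest of its group. Of 7 tested cholangiocyte markers 4 rose, and all 6 proliferation genes rose. Of 10 stellate cell and fibroblast markers 4 rose at month 2, and at month 12 2 rose and 2 fell, with sums of 628 to 769 CPM with CCl4 and 582 to 1112 with oil. Of 6 Kupffer cell markers 2 rose at month 2 and 2 fell at month 12, and of 8 endothelial markers 3 rose at month 2, and 4 rose and 3 fell at month 12. The part of a change in cell makeup in the receptor levels was not tested.

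**Figure D5:**
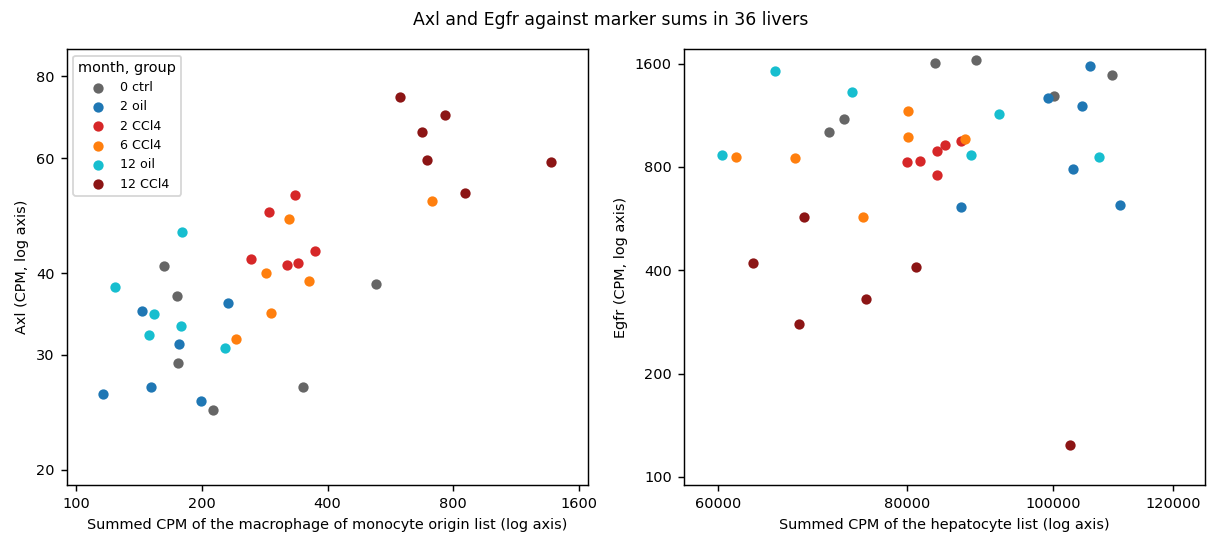
Axl against the summed level of the monocyte-derived macrophage list (left) and Egfr against the summed level of the hepatocyte list (right), in CPM on log axes, 1 point per liver and a colour per group. The 6 month 12 CCl4 livers lie at the top right on the left, and on the right they lie lowest in Egfr across the range of hepatocyte sums.

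Over the 36 livers, which share groups, each receptor was set beside 12932 genes of at least 1 CPM by the Pearson correlation of log2(CPM + 1), as a description. Egfr was most like Os9 (r = 0.908) and Akt2 (0.894), Erbb3 most like Dlg3 (0.891) and Cecr2 (0.813), and Met most like Slc46a3 (0.842) and Proz (0.837). Axl was most like Lpcat2 (0.946) and Irf8 (0.931), 2 genes of myeloid cells. Fgfr1 was most like Ctdsp2 (0.814) and Cep250 (0.808), and Erbb2 most like Atp2a3 (0.787) and Nlrc4 (0.784). The others had lower leading values: Igf1r with Ptpn13 (0.77) and Plxdc2 (0.758), Fgfr4 with Ppm1l (0.74) and Efna3 (0.723), Insr with Mtmr10 (0.736) and Scamp1 (0.719), and Fgfr2 with Rbck1 (0.639) and Bmp7 (0.604). Among the receptors themselves Egfr ran with Met (r = 0.63) and Erbb3 (0.549) and against Axl (-0.673).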

How the data were processed

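Total RNA from 36 livers was depleted of ribosomal RNA and sequenced from stranded paired-end libraries, per the labels' protocols. The authors deposited a matrix of unnormalized counts by gene symbol. The submitters' processing notes name Biojupies, the mm10 build, limma 3.44.3 and edgeR 3.30.3. The annotation and the use of strand in counting are not given in the sources used here, so reads of overlapping genes cannot be told apart.

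Counts were filtered with filterByExpr (15338 of 32544 symbols kept), scaled by TMM and fitted with edgeR 4.0.16 (R 4.3.3), 1 quasi-likelihood fit of 6 groups without an intercept or covariates. Standard errors come from the fitted log2 difference and its F statistic. DESeq2 1.42.0 and limma-voom (limma 3.58.1) were alternatives. The procedure was tested on simulated data. No 2 libraries of a group were copies, since their counts differed by a chi-square of at least 23.87 per degree of freedom in each of 90 pairs. Gene positions and lengths (mm10) came from GENCODE vM21 and promoters from RefSeq.

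The 10 receptors and the gene lists were chosen with earlier results of these data known. Besides the receptors, the text names from each list the 4 genes (3 for cell markers) with the smallest p at month 12, genes called at month 2, and the 2 genes most correlated with each receptor; marker genes beyond those described are summarised by list. Alternatives comprised other scalings, filters and reference groups, the replicate number as a block, a fit of the compared groups only, and leaving out each library or 4 libraries that earlier results named for transcripts of other tissues or blood cells (replicates 1 and 6 of CCl4 at month 2, and replicate 2 of oil at months 2 and 12).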

Additional observations from a re-analysis of the deposited data

Results flagged for a closer look

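The CCl4 effect on Egfr differed between months by -1.40 on the log2 scale (month 12 minus month 2), and that on Erbb3 by -0.79, by the test of the interaction given above; Egfr was called in all 33 alternatives of this test and Erbb3 in 32. Single livers stood far above the rest of their group in 3 of 60 groups examined, where chance gives about 1 in 20. These were Erbb2 in month 2 CCl4 replicate 6 (3.67 CPM), Igf1r in month 12 oil replicate 2 (9.26 CPM, next 4.99) and Igf1r in month 2 oil replicate 6 (8.01 CPM, next 4.92). Month 12 oil replicate 2 also had the highest mesothelium sum (93.4 CPM) and stellate sum (1112 CPM) of its group, whose part in the Igf1r level was not tested.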

How the results depend on the processing

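Over 80 receptor results and 1880 alternative values, 1806 kept their call or lack of one. Another 25 lost a call, 45 gained one and 4 reversed direction with a call in either fit. Changes of direction with no call in either fit are counted among the 1806. Erbb3 at month 2, for example, was at 0.008 and ran from -0.17 to 0.20 over the alternatives. The Egfr fall at month 12 and the Axl rises at months 2 and 12 kept their calls in every alternative run. The number of receptors called at month 2 (2) was 4 with library totals alone and 1 with no low-count filter, with the replicate block or without the 4 named libraries, 3 with limma-voom, and 1 to 3 without each library. At month 12 (5) it was 7 with library totals alone (1 lower, 6 higher), 4 with only the compared groups, and 4 to 5 without each library. At month 6 (1) it was 2 with RLE size factors, a filter of 1 CPM in 6 libraries, limma-voom, only the compared groups or month 2 oil alone, 3 with DESeq2 or without the 4 libraries, 4 with library totals alone, and 1 to 4 without each library. From month 0 to month 2 of oil (1) it was 6 with library totals alone, 0 with only the compared groups, and 0 to 1 without each library. With library totals alone these values reversed with a call in that fit or the main fit. Map2k1 went to 0.019 at month 2. Insr went to 0.24, Pros1 to 0.078, Hgf to 0.30 and Ryk to 0.23 at month 6. Braf, Akt2 and Map2k1 went to 0.21, 0.22 and 0.24 at that month. At month 12, Met went to 0.018, Fgfr4 to 0.31, Insr to 0.44, Hgf to 0.23, Kdr to 0.27 and Map2k1 to 0.38. That scaling also moved the median gene, to 0.199, 0.313 and 0.556 at months 2, 6 and 12, and 94.6%, 98% and 94.6% of called genes were then higher, against 67.4%, 67.7% and 52.7% with TMM. Replicate numbers showed no general pairing of libraries. Same-numbered libraries had a median correlation of deviations of -0.04 over 90 pairs, and 2 of 36 libraries correlated best with their own number. The 90 values ran from -0.632 to 0.558, with 24 above 0.1, and a batch shared by some libraries was not tested. The Erbb2 rise with the block was 0.72 (adjusted p = 0.0525). For the other changes the cause was not tested. Low counts limit Erbb2 and Igf1r.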
